A study of Drosophila melanogaster with 72 samples.

Results

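The RNAs described here are the long noncoding partners of 4 abundant protein complexes of Drosophila melanogaster: 7SL RNA, 7SK RNA, RNase MRP RNA and RNase P RNA. Every gene whose name in the deposited tables began with 7SLRNA, snRNA:7SK, RNaseMRP: or RNaseP: was taken, which gave 5 of the 16680 genes. These were 7SLRNA:CR32864, 7SLRNA:CR42652, snRNA:7SK, RNaseMRP:RNA and RNaseP:RNA. The rule used names alone, though it was chosen with earlier results of these data known. The first pair are near-identical genes for 7SL RNA, so the 5 genes stand for 4 RNAs.

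7SL RNA is the scaffold of the signal recognition particle, which brings ribosomes that are making secreted and membrane proteins to the endoplasmic reticulum. 7SK RNA, with the proteins Larp7, bin3 and Hexim, holds the elongation kinase P-TEFb (Cdk9 and CycT) in an inactive form. RNase P RNA is the catalytic part of the enzyme that trims the leading end of precursor tRNAs, and RNase MRP RNA is its relative that acts on the ribosomal RNA precursor and shares most of its protein subunits. 7SL and 7SK RNA are products of RNA polymerase III. The RNase P RNA gene of Drosophila lies inside a protein-coding gene and has been reported to be transcribed with it by RNA polymerase II. The Integrator complex, whose cleavage module holds IntS11, IntS9 and IntS4, cuts the nascent transcripts of the RNA polymerase II U snRNAs and of many other genes, and IntS11 is its endonuclease.

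The series measured total RNA, depleted of ribosomal RNA, in 72 libraries that form 36 groups of 2 in 6 experiments. Embryos were collected at 0 to 0.5 h, 1 to 1.5 h and 2.5 to 3 h, around the time at which the zygotic genome is switched on, and larvae at 24, 48 and 72 h AEL. The groups were wild type and a line labelled Mutant_IntS11_mislocalized, wild type and a line labelled Mutant_IntS9_mislocalized, and wild type and a line labelled KD_for_IntS11KD, each in all 3 embryonic windows. At 1 to 1.5 h and 2.5 to 3 h there were also embryos labelled a_amanitin, for the RNA polymerase II inhibitor alpha-amanitin, with their controls. A rescue experiment in the same 2 windows held wild type, IntS11mislocalized, FlagIntS11WT and FlagIntS11E203Q embryos, the latter pair carrying Flag-tagged IntS11 that is intact or has the E203Q substitution. Wild type larvae were compared with larvae labelled ZygoticMutant. The labels name no strain, promoter, driver, mutated gene of the zygotic mutant, method of mislocalization or drug dose, so a difference between a line and its wild type cannot be told apart from a difference of strain. They do not say whether the replicates of a group came from separate collections, so p-values measure only the spread between these samples, which may be technical. In bulk RNA, fewer cells of a type and less RNA per cell cannot be told apart.

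The libraries held 2061575 to 26074431 expected counts. The knockdown libraries stood apart in depth, with 10415095 to 12468983 counts against 2061575 to 2590455 in the wild type libraries beside them, so depth and knockdown cannot be told apart in that experiment. The maternal transcript bcd was at 17.2 to 362 CPM (expected counts scaled by each library's total) in the 60 embryo libraries and at 1.12 to 9.91 in the 12 larval ones. The larval cuticle transcript Lcp4 was at 78.7 to 2083 CPM in larvae and was 0 in 40 of the 60 embryo libraries, with a highest value of 93.1. The transcript of IntS11 itself was lower in the knockdown (log2 change -3.84 ± 0.15 SE at 0 to 0.5 h) and in the ZygoticMutant larvae (-2.15 ± 0.12 at 72 h AEL), and higher in the FlagIntS11WT line than in IntS11mislocalized (3.74 ± 0.06 at 2.5 to 3 h).

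All 5 genes lie on chromosome arm 3R of the dm6 build. The 7SL genes are 299 bases each and form an inverted pair. 7SLRNA:CR42652 lies at 3R:6820131-6820429 on the minus strand and 7SLRNA:CR32864 at 3R:6822500-6822798 on the plus strand, 2070 bases apart. The 3' end of the homeotic gene Scr, on the minus strand, lies 321 bases from 7SLRNA:CR32864. The expected counts of the 7SL genes were equal in 72 of 72 libraries within 0.01 of a count, so reads could not be assigned to either copy and their counts were summed. snRNA:7SK, now named snRNA:7SKa, covers 444 bases at 3R:7474553-7474996 on the minus strand. RNaseMRP:RNA covers 382 bases at 3R:23730048-23730429 on the minus strand, inside introns of 4 transcripts of CG10365, a gene on the opposite strand. RNaseP:RNA covers 299 bases at 3R:31217364-31217662 on the minus strand, inside introns of 5 transcripts of ATPsynC (CG1746 in the tables), which lies on the same strand and encodes a subunit of the mitochondrial ATP synthase. The sources used here do not say whether counting used the strand, so reads of an intron and of the RNA within it could not be told apart.

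7SL RNA was the most abundant of the 4 in every library. It took 2.90% to 25.5% of all counts (median 4.70%), and the 4 RNAs together took 3.20% to 26.8%. 7SK RNA took 0.154% to 1.07%, RNase MRP RNA 0.0457% to 0.293% and RNase P RNA 0.00372% to 0.116%. Levels per length were compared in TPM, a share of transcripts corrected for effective length, where 7SL RNA reached 249326 to 711512, 7SK RNA 5741 to 13911 and RNase MRP RNA 2456 to 10866. By TPM, 7SL exceeded 7SK in 72 of 72 libraries and 7SK exceeded RNase MRP in 71, the exception being a library of 2.5 to 3 h controls of the alpha-amanitin experiment. RNase MRP exceeded RNase P in 60 of 72 libraries. RNase P RNA was thus the least abundant of the 4 in all control embryos, where it was at 357 to 792 TPM, and the exceptions were larvae and the IntS11mislocalized embryos of the rescue experiment. These TPM rest on effective lengths of 74.6 to 102.6 bases for 7SL, against a gene of 299, so a TPM of these short genes depends on the fragment lengths of its library.

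**Figure D1:**
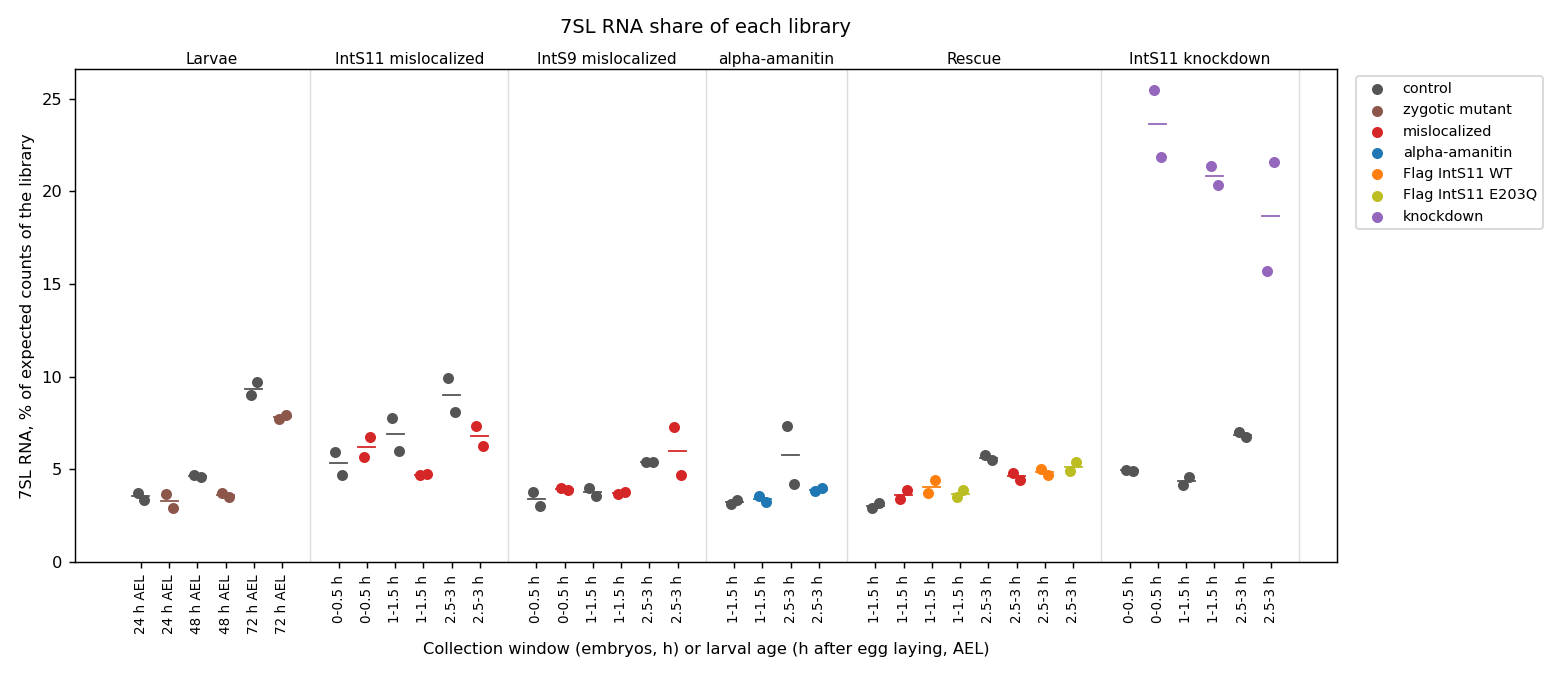
The share of all expected counts taken by the 2 summed 7SL genes, in percent on a linear axis from 0, for each of the 72 libraries (points, with the mean of 2 as a short line), grouped by experiment and group. The 6 knockdown libraries lie at 15.7% to 25.5%, and all other libraries at 2.90% to 9.95%.

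RNase P RNA was higher in embryos of the lines with mislocalized Integrator subunits than in wild type in every window. In the IntS11 experiment, RNase P RNA was at 80.3 and 62.6 CPM in the wild type libraries at 0 to 0.5 h and at 361 and 310 in the mutant ones. At 1 to 1.5 h it was at 124 and 93.0 in wild type against 296 and 299, and at 2.5 to 3 h at 149 and 135 against 474 and 398. The groups did not overlap in any window. In the IntS9 experiment, wild type libraries held 48.7 and 37.2, then 38.5 and 46.2, then 63.9 and 67.1 CPM in the 3 windows. The mutant libraries held 199.6 and 213, then 214 and 212, then 419 and 258. Each mutant library was above each wild type library.

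The fitted log2 changes of RNase P RNA for mislocalized IntS11 against wild type were 2.26 ± 0.15, 1.40 ± 0.14 and 1.26 ± 0.14 (SE) in the 3 windows, or 4.79-fold, 2.64-fold and 2.39-fold (adjusted p = 9.01e-09, 9.23e-07 and 4.68e-07, edgeR quasi-likelihood test with Benjamini-Hochberg adjustment over all genes tested). For mislocalized IntS9 they were 2.23 ± 0.26, 2.30 ± 0.26 and 2.24 ± 0.25, or 4.70-fold, 4.94-fold and 4.74-fold (adjusted p = 0.000403, 0.000307 and 0.000129). Of the 4 RNAs, 2 passed the threshold (adjusted p below 0.05) for IntS11 at 0 to 0.5 h, where 31.7% of all genes tested did. There 7SK RNA was the other, higher by 0.62 ± 0.16 on the log2 scale, a call that was lost without the wild type library of replicate 2 (0.36) or the mutant library of replicate 2 (0.37). In the next window 3 of the 4 passed (47.2% of all genes) and at 2.5 to 3 h all 4 did (83.3%). For IntS9 the numbers were 1 of 4 (52.6% of all genes), 1 of 4 (59.4%) and 2 of 4 (83.4%). Among these calls RNase P RNA was the one made in each of these 6 comparisons and always higher, while shares of over 80% of all genes at 2.5 to 3 h leave a count of called members without weight in that window.

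RNase MRP RNA was lower with mislocalized IntS11 in the later windows. In the IntS11 experiment its CPM were 1234 and 928 in wild type against 853 and 946 at 0 to 0.5 h, 1498 and 1218 against 660 and 695 at 1 to 1.5 h, and 2045 and 1503 against 1142 and 841 at 2.5 to 3 h. The groups overlapped in the earliest window and not in the later ones. The log2 changes were -0.23 ± 0.18 (adjusted p = 0.356), -1.06 ± 0.18 (adjusted p = 0.000337) and -1.20 ± 0.18 (adjusted p = 2.68e-05, edgeR). The last was -0.74 ± 0.20 without the mutant library of replicate 2, still called. The median over all genes in that window was -0.38. In the IntS9 experiment the changes of RNase MRP RNA were -0.16 ± 0.22, -0.45 ± 0.22 and -0.46 ± 0.22, and none of these passed. At 2.5 to 3 h its groups overlapped in unscaled CPM, with 954 and 965 in wild type against 955 and 564. Scaled by the trimmed mean of M values, as in the fit, they did not, with 1013 and 1028 against 936 and 548.

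The ratio of the RNase P to the RNase MRP RNA does not depend on how libraries are scaled. RNase P counts per 100 RNase MRP counts were 3.48 to 9.38 in the 30 libraries of control and alpha-amanitin embryos, and 32.8 to 52.7 in the 24 libraries of the mislocalized and Flag-tagged lines. These ranges did not overlap. The ratio was 9.46 to 11.1 in the 6 knockdown libraries and 39.2 to 79.6 in the 12 larval libraries.

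**Figure D2:**
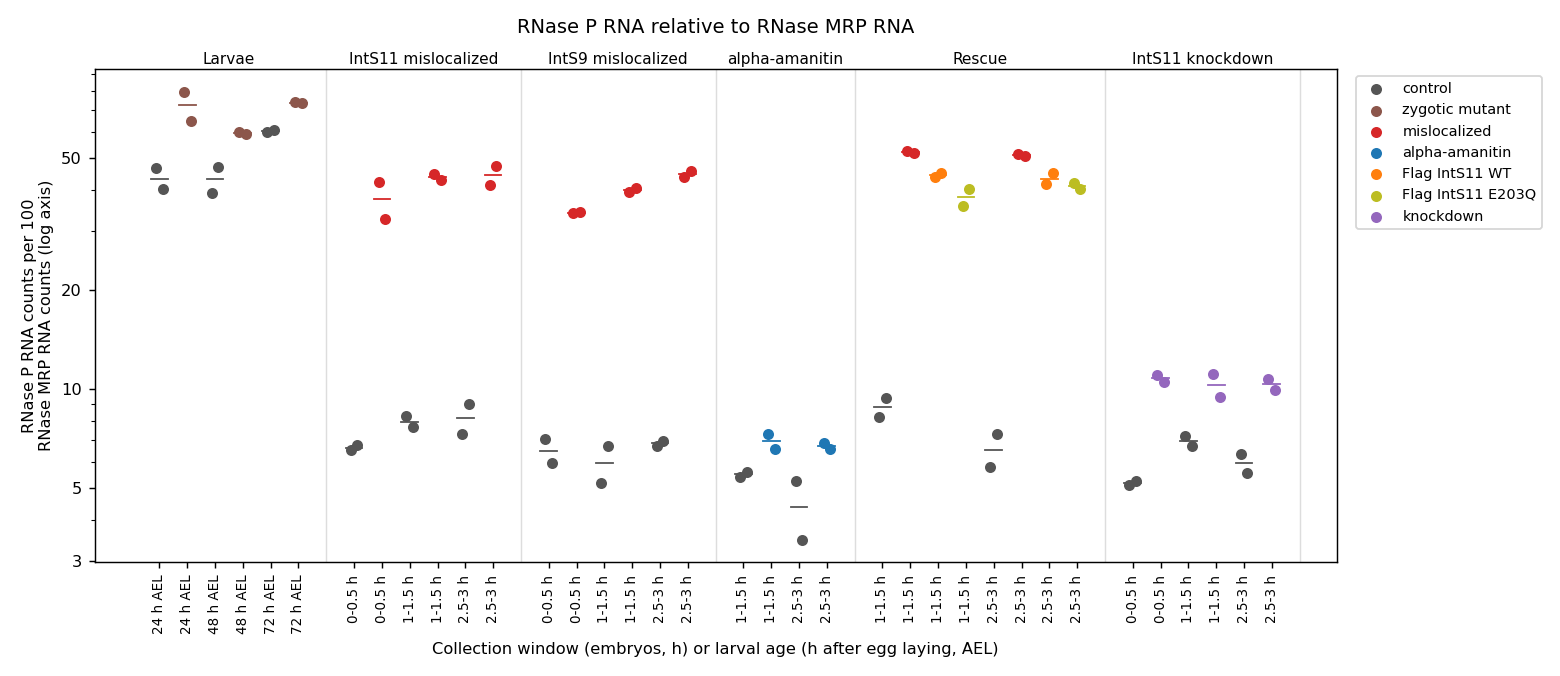
RNase P counts per 100 RNase MRP counts in each of the 72 libraries (points, with the mean of 2 as a short line), on a log axis, grouped by experiment and group. Mislocalized and Flag-tagged lines lie at 32.8 to 52.7, control and alpha-amanitin embryos at 3.48 to 9.38, knockdown embryos at 9.46 to 11.1 and larvae at 39.2 to 79.6.

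The changes of 7SL and 7SK RNA in these lines were smaller in size than those of RNase P RNA in each of the 6 comparisons. 7SL RNA took 5.97% and 4.68% of counts in wild type and 5.66% and 6.77% with mislocalized IntS11 at 0 to 0.5 h, 7.78% and 6.0% against 4.69% and 4.75% at 1 to 1.5 h, and 9.95% and 8.09% against 7.35% and 6.28% at 2.5 to 3 h. The groups overlapped in the earliest window only. The log2 changes were 0.25 ± 0.17 (adjusted p = 0.281), -0.60 ± 0.17 (adjusted p = 0.00981) and -0.77 ± 0.17 (adjusted p = 0.000702, edgeR). The median over all genes at 2.5 to 3 h was -0.38, and -0.02 with scaling by total counts. At 1 to 1.5 h the call was lost without the wild type library of replicate 1 (-0.38), the mutant library of replicate 1 (-0.58) or that of replicate 2 (-0.61), and at 2.5 to 3 h without the mutant library of replicate 2 (-0.40). For 7SK RNA the later changes were -0.20 ± 0.16 (adjusted p = 0.328) and -0.71 ± 0.16 (adjusted p = 0.000751), and the latter call was also lost without the mutant library of replicate 2 (-0.39). With mislocalized IntS9, 7SL RNA changed by 0.19 ± 0.18, -0.05 ± 0.18 and 0.04 ± 0.18, none called. The last of these became -0.31 and passed (adjusted p = 0.00735) without the mutant library of replicate 1, which held 7.29% 7SL against 4.72% in its partner and 5.39% and 5.38% in wild type. 7SK RNA changed by -0.03 ± 0.09, -0.22 ± 0.09 and -0.49 ± 0.09, with a call in the last window (adjusted p = 0.000117), where it was -0.31 without the mutant library of replicate 2.

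The change between the first and the last window was tested as a difference of differences. With mislocalized IntS11 it was lower for all 4 RNAs at 2.5 to 3 h than at 0 to 0.5 h. For RNase P RNA the difference was -1.0 ± 0.20 (adjusted p = 0.000353). Of all genes, 65.1% were called in either direction. The median of this difference over all genes was -0.43, and -0.04 with scaling by total counts, so the size of this difference depends on scaling. In mean shares of counts, RNase P RNA was 4.698-fold wild type in the first window and 3.065-fold in the last. With mislocalized IntS9 1 of the 4 passed (69.0% of all genes), 7SK RNA, while RNase P RNA differed by 0.01 ± 0.36 on the log2 scale (adjusted p = 1). Set against each other in 1 fit over the IntS11, IntS9 and knockdown experiments, the IntS9 and IntS11 lines differed in none of the 4 RNAs at 0 to 0.5 h (12.2% of all genes called), in RNase P RNA at 1 to 1.5 h (0.79 ± 0.28, adjusted p = 0.0458, with 28.0% of all genes called), and in none at 2.5 to 3 h (26.4%). In each of the windows with 0 called by edgeR, 1 RNA had an unadjusted p under 0.05: 7SK at 0 to 0.5 h (-0.69 ± 0.23, adjusted p = 0.0529) and RNase P at 2.5 to 3 h (0.68 ± 0.28, adjusted p = 0.0783).

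**Figure D3:**
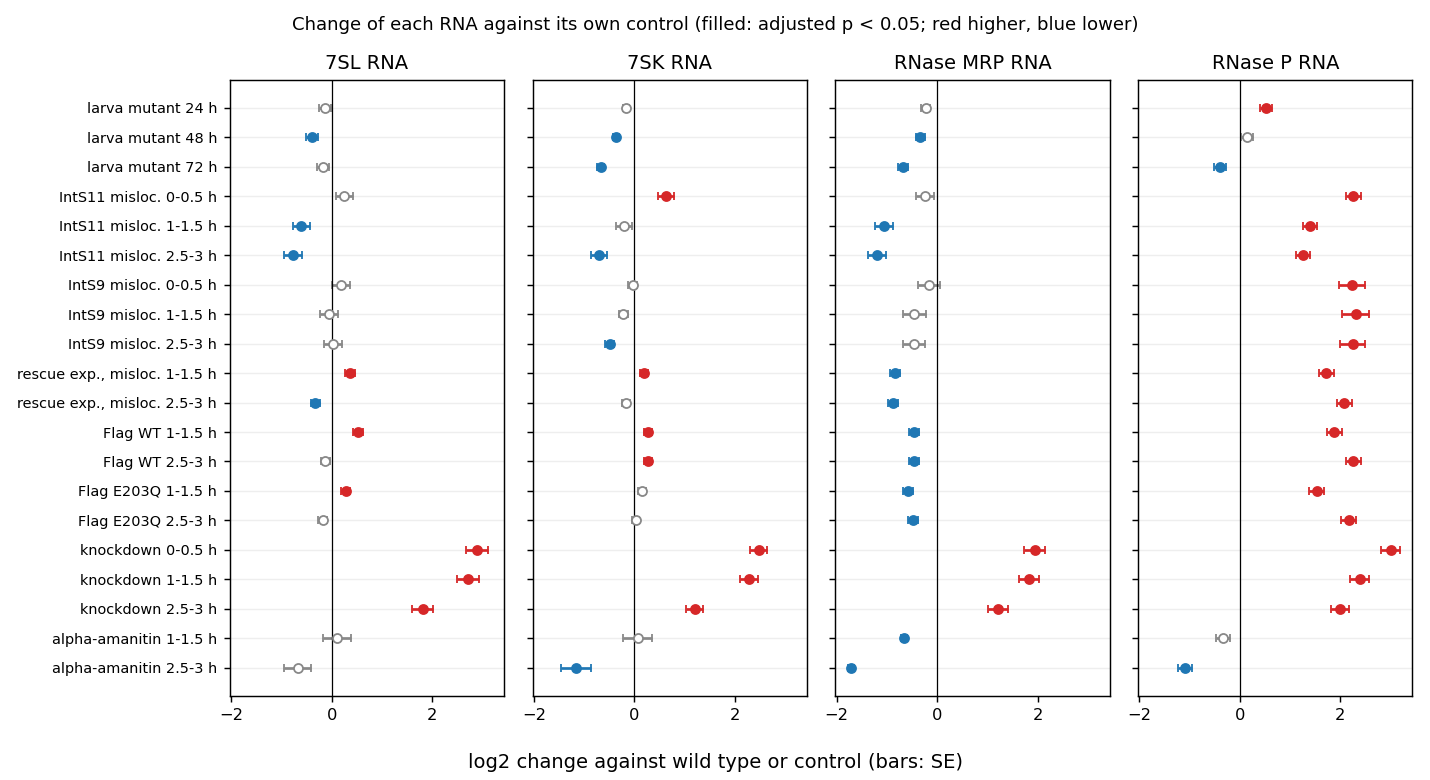
The log2 change of each RNA (4 panels) in 20 comparisons of a line or treatment with its own control, with bars for the standard error. Filled points passed an adjusted p of 0.05, red for higher and blue for lower, and open points did not. RNase P RNA is higher at 2.39-fold to 4.94-fold in all 12 comparisons of mislocalized and Flag-tagged lines with wild type.

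The rescue experiment asked whether Flag-tagged IntS11, intact or with the E203Q substitution, changes what the IntS11mislocalized line shows. Its comparisons share libraries, so their values are set side by side. At 1 to 1.5 h RNase P RNA was at 74.8 and 88.8 CPM in wild type, 241 and 264 in IntS11mislocalized, 254 and 310 in FlagIntS11WT and 222 and 253 in FlagIntS11E203Q. At 2.5 to 3 h the values were 62.1 and 79.7, 293 and 322, 321 and 319, and 303 and 355 in the same order. All 3 lines were above wild type in both windows, and neither Flag line was below IntS11mislocalized in the later one.

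Against wild type, RNase P RNA was higher by 1.72 ± 0.15 and 2.08 ± 0.15 in IntS11mislocalized, by 1.88 ± 0.15 and 2.26 ± 0.15 in FlagIntS11WT, and by 1.53 ± 0.15 and 2.17 ± 0.15 in FlagIntS11E203Q (log2 scale, earlier and later window). All 6 passed, with a largest adjusted p of 2.23e-05 (edgeR). Against IntS11mislocalized, FlagIntS11WT differed in RNase P RNA by 0.16 ± 0.14 (adjusted p = 0.473) and 0.18 ± 0.14 (adjusted p = 0.264), and FlagIntS11E203Q by -0.19 ± 0.14 (adjusted p = 0.298) and 0.08 ± 0.14 (adjusted p = 0.637), so no change with the transgene was detectable within these errors. The zygotic segmentation transcript eve, in contrast, was at 11.8 and 15.2 CPM in IntS11mislocalized and at 129 and 132 in FlagIntS11WT at 2.5 to 3 h, against 115 and 115 in wild type. It was at 47.2 and 49.1 in FlagIntS11E203Q. In FlagIntS11WT embryos eve was no lower than in wild type, and RNase P RNA was higher. The marker eve was chosen after values were seen, and the cause of the RNase P RNA difference was not tested.

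RNase MRP RNA was lower in IntS11mislocalized than in wild type by -0.84 ± 0.10 and -0.88 ± 0.10, and in the Flag lines by -0.45 ± 0.10 and -0.46 ± 0.10 in FlagIntS11WT and -0.58 ± 0.10 and -0.48 ± 0.10 in FlagIntS11E203Q. All 6 passed, of which FlagIntS11WT at 1 to 1.5 h was lost without its library of replicate 1 (-0.34). FlagIntS11WT exceeded IntS11mislocalized by 0.38 ± 0.10 (adjusted p = 0.0148) and 0.42 ± 0.10 (adjusted p = 0.00209). The first of these was lost without IntS11mislocalized replicate 1 (0.30) or FlagIntS11WT replicate 2 (0.26). FlagIntS11E203Q exceeded it by 0.26 ± 0.10 (adjusted p = 0.0548) and 0.40 ± 0.10 (adjusted p = 0.00482). The latter moved to 0.25 without FlagIntS11E203Q replicate 2 and was not called when only the groups compared were fitted (0.41, adjusted p = 0.121). FlagIntS11WT and FlagIntS11E203Q differed in RNase MRP RNA by 0.13 ± 0.10 and 0.02 ± 0.10, neither called.

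In numbers of RNAs called, IntS11mislocalized against wild type had 4 of 4 at 1 to 1.5 h (53.4% of all genes called) and 3 of 4 at 2.5 to 3 h (81.9%). FlagIntS11WT against wild type had 4 (43.4%) and 3 (44.4%), and FlagIntS11E203Q against wild type had 3 (49.3%) and 2 (77.1%). FlagIntS11WT against IntS11mislocalized had 1 (24.2%) and 2 (78.4%), and FlagIntS11E203Q against IntS11mislocalized had 0 (43.7%) and 2 (53.5%). FlagIntS11WT against FlagIntS11E203Q had 1 (45.7%) and 1 (75.1%). In the comparison with 0 called by edgeR, 1 RNA (RNase MRP) had an unadjusted p under 0.05 and DESeq2 called 1.

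The changes of 7SL and 7SK RNA against wild type were smaller in size than those of RNase P RNA in the rescue experiment as well. Their direction was not always the same. With mislocalized IntS11 at 1 to 1.5 h, 7SL RNA was called lower in the IntS11 experiment (-0.60) and higher in the rescue experiment (0.37 ± 0.09). The IntS11 transcript changed by -0.53 ± 0.08 in the former and -0.01 ± 0.06 in the latter. The cause of this conflict was not tested. 7SL RNA was higher at 1 to 1.5 h by 0.37 ± 0.09 in IntS11mislocalized (adjusted p = 0.00339), 0.53 ± 0.09 in FlagIntS11WT (adjusted p = 0.00029) and 0.28 ± 0.09 in FlagIntS11E203Q (adjusted p = 0.02). The last call was lost without wild type replicate 1 (0.20) or FlagIntS11E203Q replicate 2 (0.20), and with RLE size factors (0.21). At 2.5 to 3 h the 3 values were -0.32 ± 0.09 (adjusted p = 0.00447), -0.13 ± 0.09 and -0.18 ± 0.09, the first of them called, and lost without wild type replicate 1 (-0.26) or IntS11mislocalized replicate 2 (-0.26). 7SK RNA rose in FlagIntS11WT against IntS11mislocalized at 2.5 to 3 h by 0.44 ± 0.08 (adjusted p = 6.45e-05), from 2928 and 3035 to 3816 and 3637 CPM. The remaining calls were small and each rested on single libraries. The excess of 7SK RNA over wild type at 1 to 1.5 h was 0.19 ± 0.08 in IntS11mislocalized (lost without wild type replicate 1, 0.13, or IntS11mislocalized replicate 2, 0.10, and with RLE size factors, 0.08, or total counts, 0.09) and 0.28 ± 0.08 in FlagIntS11WT (lost without wild type replicate 1, 0.21, or FlagIntS11WT replicate 2, 0.20, and with total counts, 0.18). At 2.5 to 3 h it was 0.27 ± 0.08 in FlagIntS11WT (lost without wild type replicate 2 or FlagIntS11WT replicate 1, 0.24 each, and with RLE or total counts, 0.18 each). FlagIntS11E203Q exceeded IntS11mislocalized in 7SK RNA by 0.20 ± 0.08 at 2.5 to 3 h (lost without any of the 4 libraries, 0.16 to 0.22). FlagIntS11WT exceeded FlagIntS11E203Q by 0.24 ± 0.08 in 7SK RNA at 2.5 to 3 h (lost without replicate 1 of either, 0.21 and 0.22, and with total counts, 0.11). It exceeded it by 0.25 ± 0.09 in 7SL RNA at 1 to 1.5 h (lost without FlagIntS11WT replicate 2, 0.12, or FlagIntS11E203Q replicate 1, 0.17, and with total counts, 0.15).

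7SL and 7SK RNA took a larger share in each of the 6 knockdown libraries than in any other library, which did not hold for RNase MRP and RNase P RNA. 7SL RNA took 25.5% and 21.8% of counts in the knockdown at 0 to 0.5 h against 4.99% and 4.92% in its wild type, 21.4% and 20.3% against 4.14% and 4.62% at 1 to 1.5 h, and 15.7% and 21.6% against 7.02% and 6.75% at 2.5 to 3 h. 7SK RNA took 1.07% and 0.948% against 0.278% and 0.287%, 0.897% and 0.891% against 0.248% and 0.257%, and 0.709% and 0.948% against 0.468% and 0.467%. No group overlapped its wild type. RNase MRP RNA was at 2775 and 2597 CPM against 1145 and 1027 at 0 to 0.5 h, at 2264 and 2503 against 922 and 925 at 1 to 1.5 h, and at 2026 and 2932 against 1399 and 1382 at 2.5 to 3 h. RNase P RNA was at 306 and 273 against 58.5 and 53.9, at 252 and 237 against 66.4 and 62.2, and at 218 and 291 against 88.8 and 76.6. The wild type values of RNase P RNA rest on 128 to 227 counts per library, so that the lowest of them, 0.00539% of counts, has a 95% Clopper-Pearson interval of 0.00450% to 0.00641%, which covers counting error only.

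All 4 RNAs were higher in the knockdown in each of the 3 windows, in which 69.1%, 72.8% and 75.7% of all genes were called. At 0 to 0.5 h the log2 changes were 2.89 ± 0.22 for 7SL, 2.47 ± 0.18 for 7SK, 1.94 ± 0.20 for RNase MRP and 3.00 ± 0.19 for RNase P (largest adjusted p = 2.59e-05, edgeR). At 2.5 to 3 h they were 1.81 ± 0.21, 1.20 ± 0.17, 1.21 ± 0.20 and 1.99 ± 0.18, and that of RNase MRP was 0.79 without the knockdown library of replicate 2. These sizes depend on scaling. With total counts in place of the trimmed mean of M values, the median over all genes at 0 to 0.5 h shifted by -0.62 and the changes of the 4 RNAs were 2.26, 1.84, 1.31 and 2.36, all called. The change shrank from the first to the last window for 3 of the 4 RNAs (58.0% of all genes called), and for RNase MRP the difference was -0.73 ± 0.28 (adjusted p = 0.0514).

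Other short noncoding RNAs moved with these RNAs in the knockdown libraries, as did depth. Of the 20 snoRNA genes tested, 19, 20 and 18 were higher in the 3 windows and 0 were lower, with medians of 1.94, 2.26 and 1.53 against medians of 0.25, 0.26 and 0.07 over all genes. Of 12 U snRNAs made by RNA polymerase II, 9, 8 and 8 were higher and 0 lower. Of all genes, 39.5%, 41.8% and 39.7% were higher in the 3 windows. snRNA:U12:73B of the minor spliceosome rose by 2.51 ± 0.18 at 0 to 0.5 h, and snRNA:U11 by 1.72 ± 0.20. In the 12 comparisons of the mislocalized and Flag-tagged lines with wild type, the U snRNAs went the other way, with 125 calls of lower among 150 tests (83.3%) and 0 of higher, against 28.4% lower and 30.6% higher over all genes. The genes tested were 20 of 273 snoRNA genes in the knockdown experiment, and 12 or 13 of 25 U snRNA genes in these experiments. A gene could pass the filter on low counts through the group where it is high alone, so the filter can tilt the direction of these counts. Summed over all 273 snoRNA genes without the filter, shares were 0.321% to 0.408% in the knockdown and 0.112% to 0.223% in its wild type. Depth, the share of short noncoding RNA and the knockdown moved together, and their part in the result was not tested.

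The knockdown and the mislocalized IntS11 line differed in 3 of the 4 RNAs. The change against wild type was larger in the knockdown by 2.20 ± 0.28 for 7SL, 1.41 ± 0.23 for 7SK and 1.73 ± 0.31 for RNase MRP at 0 to 0.5 h. In that window 52.6% of all genes tested were called as different between these lines. At 1 to 1.5 h (56.3% of all genes) and 2.5 to 3 h (60.1%) the same 3 RNAs passed. RNase P RNA differed by 0.30 ± 0.32 (adjusted p = 0.508), 0.48 ± 0.32 (adjusted p = 0.217) and -0.02 ± 0.31 (adjusted p = 0.993). In both lines RNase P RNA was thus higher, by amounts whose difference did not pass, while for the other 3 RNAs the change was larger in the knockdown.

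Embryos with alpha-amanitin were compared with their controls in both windows. RNase MRP RNA was at 677 and 666 CPM in treated embryos against 1069 and 1100 in controls at 1 to 1.5 h, and at 741 and 791 against 2203 and 2470 at 2.5 to 3 h. RNase P RNA was at 49.2 and 43.9 against 57.9 and 61.7, and then at 50.9 and 51.8 against 116 and 86.0. 7SL RNA took 3.54% and 3.27% against 3.14% and 3.34%, and then 3.82% and 3.98% against 7.33% and 4.21%. Treated embryos were below controls for RNase MRP and RNase P RNA in both windows, and for 7SL RNA in the later one.

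In the earlier window 1 of the 4 RNAs passed (33.6% of all genes called), RNase MRP at -0.66 ± 0.06 (adjusted p = 4.79e-06, edgeR). At 2.5 to 3 h 3 passed, where 89.7% of all genes did and the median over all genes was -0.22. RNase MRP was lower by 1.72 ± 0.06 on the log2 scale (3.29-fold), 7SK by 1.16 ± 0.29 and RNase P by 1.10 ± 0.14. The controls of this experiment, over both windows, were high in RNase MRP RNA, with 3.01 to 5.87 counts per 100 7SL counts. Treated embryos held 1.91 to 2.04, and the median over the 26 control embryo libraries of all experiments was 2.04. 7SL RNA changed by -0.68 ± 0.28 and missed the threshold (adjusted p = 0.0646). The call on 7SK was lost without the treated library of replicate 1 (-1.08, adjusted p = 0.0545), and its change was -0.70 without control replicate 1, the library with 7.33% 7SL. The differences between the windows passed for 3 of 4 RNAs (72.7% of all genes), with -1.05 ± 0.09 for RNase MRP. eve was at 0.109 and 0.152 CPM in the treated and at 142 and 217 in the control embryos at 2.5 to 3 h, and at 0.936 and 1.08 in the mislocalized IntS9 embryos, where RNase P RNA was 4.74-fold higher than in wild type. RNase P RNA was lower under the drug. The marker eve was chosen after values were seen, and a relation between it and RNase P RNA was not tested.

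In control embryos 7SL and 7SK RNA rose between the later windows in every experiment, and RNase MRP and RNase P RNA in some. Between 1 to 1.5 h and 2.5 to 3 h, 7SL and 7SK RNA passed as higher in 5 of 5 experiments and RNase MRP and RNase P RNA in 3 each. In the IntS11 experiment's wild type all 4 rose (81.1% of all genes called), by 0.56 ± 0.17 for 7SL, 0.90 ± 0.16 for 7SK, 0.55 ± 0.18 for RNase MRP and 0.56 ± 0.14 for RNase P. Those of 7SL, RNase MRP and RNase P were lost without 1 to 1.5 h replicate 2 (0.29, 0.32 and 0.27), and those of 7SL and RNase MRP also without 2.5 to 3 h replicate 1 (0.37 and 0.28). In the wild type of the IntS9 experiment 3 rose (81.4%), 7SL by 0.62 ± 0.18, 7SK by 0.92 ± 0.09 and RNase P by 0.74 ± 0.28. The 7SL call was lost without 1 to 1.5 h replicate 2 (0.53), and that of RNase P without any of the 4 libraries (0.62 to 0.86) or with total counts (0.63).

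The other 3 experiments were alike in the rise of 7SL and 7SK RNA. In the wild type of the knockdown experiment 3 rose (73.3% of all genes called), 7SL by 0.66 ± 0.21, 7SK by 0.90 ± 0.17 and RNase MRP by 0.60 ± 0.20. The 7SL call was lost without 1 to 1.5 h replicate 1 or without either 2.5 to 3 h library (0.57 to 0.67), and that of RNase MRP without any of the 4 (0.58 to 0.59). In the controls of the drug experiment all 4 rose (90.5%), by 1.00 ± 0.28, 1.45 ± 0.30, 1.26 ± 0.06 and 0.93 ± 0.14 for 7SL, 7SK, RNase MRP and RNase P, and 7SL by 0.51 without 2.5 to 3 h replicate 1. In the wild type of the rescue experiment 2 rose (84.9%), 7SL by 0.87 ± 0.09 and 7SK by 0.63 ± 0.08, and RNase P changed by -0.24 ± 0.16.

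Over the same interval in alpha-amanitin embryos none of the 4 passed by edgeR or DESeq2, with changes of 0.16 to 0.22 (2.82% of all genes called) and 1 unadjusted p under 0.05, that of RNase MRP. Between 0 to 0.5 h and 1 to 1.5 h 1 of the 4 passed in the IntS11 experiment's wild type (32.3%), RNase P at 0.63 ± 0.15, and was lost without 0 to 0.5 h replicate 2 (0.39) or 1 to 1.5 h replicate 1 (0.39). None passed in the wild type of the IntS9 (41.2%) or the knockdown (1.68%) experiment by edgeR or DESeq2, nor at an unadjusted p of 0.05 (0 of 4 in each), and the changes ran from -0.07 to 0.11 and from -0.29 to 0.13.

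**Figure D4:**
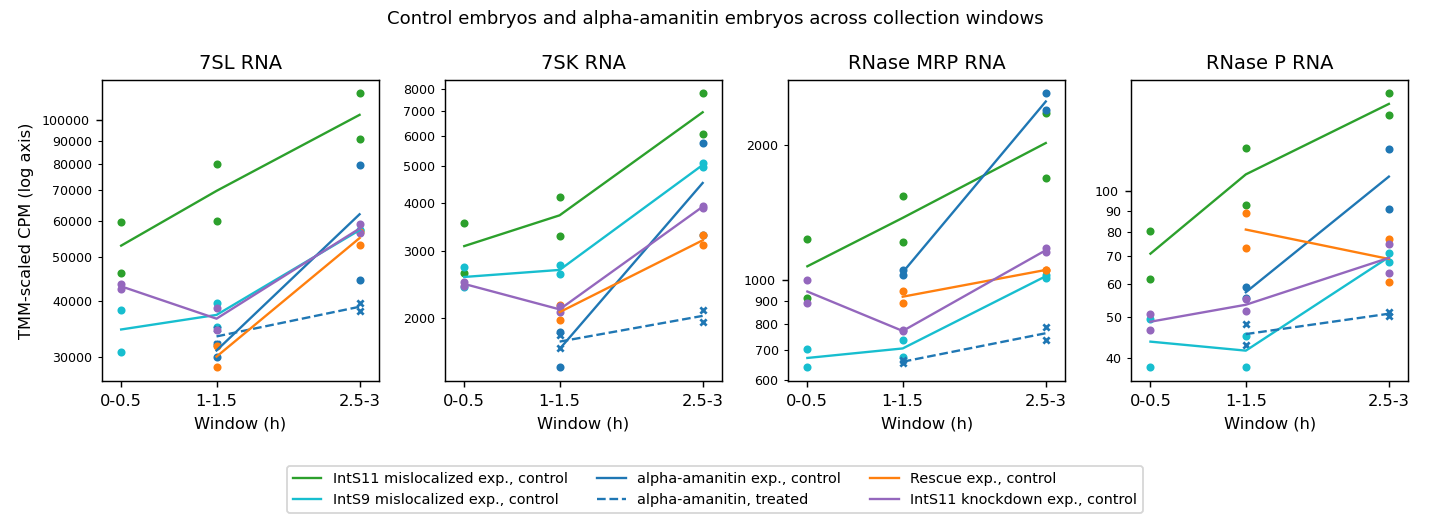
CPM scaled by the trimmed mean of M values, on a log axis, for each RNA in control embryos of 5 experiments by window in hours, and in alpha-amanitin embryos (crosses and dashed line). Points are libraries and lines join the means of 2. 7SL and 7SK RNA rise in all 5 controls between the last pair of windows, and in alpha-amanitin embryos none of the 4 passed the test.

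In ZygoticMutant larvae the direction for RNase P RNA changed with age. It was at 440 and 422 CPM in wild type and 690 and 564 in the mutant at 24 h AEL, at 536 and 537 against 613 and 596 at 48 h, and at 1033 and 1159 against 857 and 711 at 72 h. The mutant was above wild type in both libraries at the first 2 ages and below it at the last. The log2 changes were 0.52 ± 0.12 (adjusted p = 0.0315), 0.14 ± 0.12 (adjusted p = 0.436) and -0.40 ± 0.12 (adjusted p = 0.0197), and the difference between 72 h and 24 h was -0.92 ± 0.17 (adjusted p = 0.00249, edgeR). The call at 24 h was lost without wild type replicate 1 (0.56) or 2 (0.46) or mutant replicate 1 (0.34), and with no filter on low counts (0.52, adjusted p = 0.0683). The call at 72 h was lost without wild type replicate 2 (-0.31) or mutant replicate 2 (-0.29).

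7SK and RNase MRP RNA were lower in mutant larvae at 48 and 72 h AEL. 7SK RNA took 0.320% and 0.295% of counts in wild type against 0.295% and 0.265% in the mutant at 24 h AEL, 0.244% and 0.245% against 0.195% and 0.192% at 48 h, and 0.493% and 0.519% against 0.296% and 0.303% at 72 h. The log2 changes of 7SK were -0.16 ± 0.06 (adjusted p = 0.127), -0.37 ± 0.06 (adjusted p = 0.000172) and -0.67 ± 0.06 (adjusted p = 1.86e-08), so that it fell further below wild type at the later ages. RNase MRP RNA changed by -0.23 ± 0.09, -0.33 ± 0.09 (adjusted p = 0.0222) and -0.68 ± 0.09 (adjusted p = 9.36e-05). 7SL RNA was called at 48 h alone (-0.39 ± 0.12, adjusted p = 0.0411), and at 24 h its shares overlapped, with 3.76% and 3.36% in wild type against 3.67% and 2.94%. Of the 48 h calls, that of 7SL was lost without wild type replicate 1 (-0.38) or 2 (-0.41), without mutant replicate 2 (-0.34) and with no filter (-0.40). That of RNase MRP was lost without wild type replicate 1 (-0.20), mutant replicate 1 (-0.36) or 2 (-0.32), with total counts (-0.30) and with only the groups compared (-0.32).

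In numbers, 1 of 4 RNAs was called at 24 h (9.97% of all genes), 3 of 4 at 48 h (29.7%) and 3 of 4 at 72 h (57.2%), and 3 of 4 differed between 72 h and 24 h (43.2%). In wild type larvae 3 of 4 rose from 24 to 48 h (68.9%), 7SL by 0.63 ± 0.12, RNase MRP by 0.57 ± 0.09 and RNase P by 0.55 ± 0.12, while 7SK changed by -0.09 ± 0.06. All 4 rose from 48 to 72 h (51.2%), by 1.07 ± 0.12, 1.11 ± 0.06, 0.60 ± 0.09 and 1.10 ± 0.12 for 7SL, 7SK, RNase MRP and RNase P.

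The genes that hold RNase P and RNase MRP RNA in their introns moved with them in some comparisons and against them in others. ATPsynC, the host of RNase P RNA, changed by -0.16 to 0.69 on the log2 scale in the 12 comparisons of the mislocalized and Flag-tagged lines with wild type, in which RNase P RNA rose by 1.26 to 2.30. It was higher in 8, lower in 1 and not called in 3, where 30.6% of all tests over all genes were called higher and 28.4% lower. In the knockdown it was lower in all 3 windows, by -1.37 to -0.80, where 29.6% to 36.0% of all genes were lower, while RNase P RNA was higher. CG10365, the host of RNase MRP RNA on the other strand, changed by 0.04 to 2.29 in the 12 comparisons and was higher in 11, whereas RNase MRP RNA was lower in 8 and not called in 4. In the knockdown CG10365 was higher in all 3 windows, by 1.11 to 1.77, as RNase MRP RNA was, where 39.5% to 41.8% of all genes were higher. In mutant larvae CG10365 was lower at 3 of 3 ages (-0.52 to -0.30), and RNase MRP RNA was lower too, with a call at 2 of them. Of all genes, 4.41% to 30.6% were lower at these ages.

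**Figure D5:**
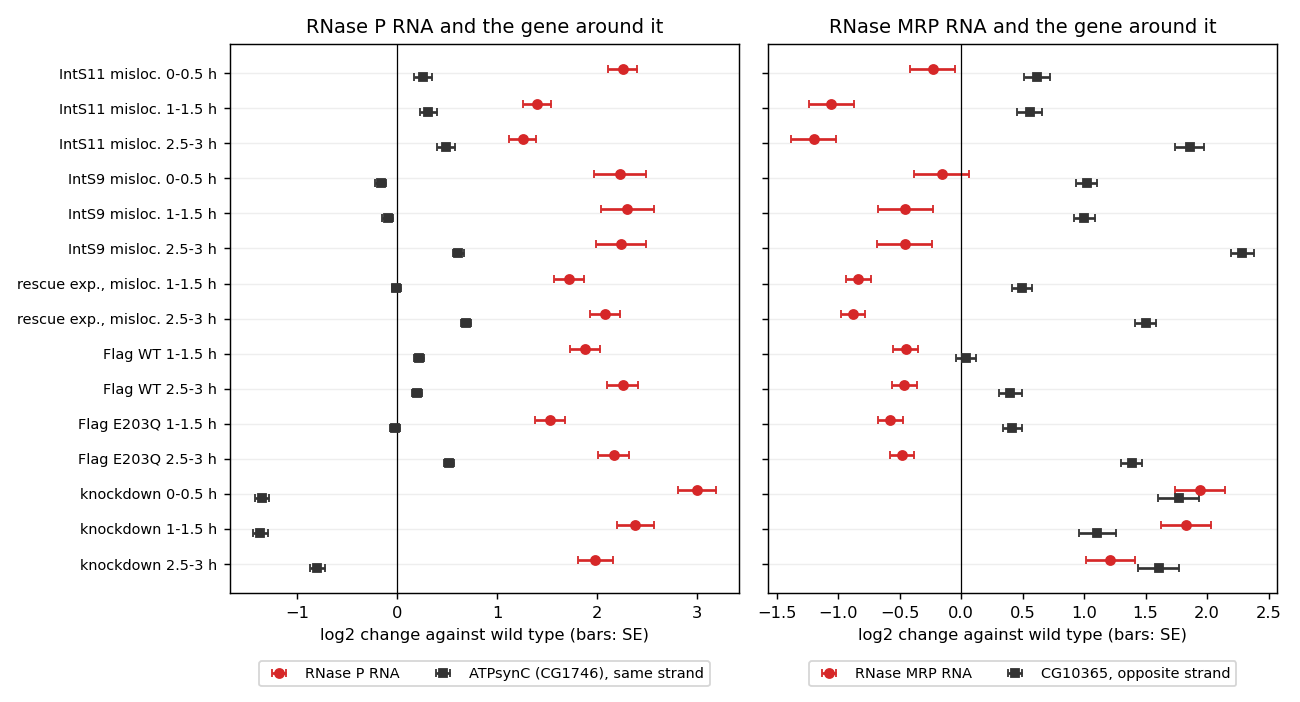
The log2 change of RNase P RNA against that of its host gene ATPsynC (CG1746), and of RNase MRP RNA against that of CG10365, in 15 comparisons with wild type, with standard errors as bars. RNase P RNA lies above 1 on its axis in every comparison while ATPsynC runs from -1.37 to 0.69.

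The protein partners were read from lists made with earlier results of these data known. The 8 measured RNase P and RNase MRP proteins, tested in each of those 12 comparisons, gave 19 calls of higher and 30 of lower among 96 (19.8% and 31.3%), against 30.6% higher and 28.4% lower over all genes in the same 12 comparisons. The shares were thus near or below those of all genes, with medians per comparison of -0.55 to 0.21. With mislocalized IntS11 at 2.5 to 3 h, where 30.1% of all genes were higher and 53.2% lower, 5 of the 8 were lower and 1 higher. Rpp14 (CG34317 in the tables) fell by 3.37 ± 0.21 on the log2 scale, Rpp21 (CG33082) by 2.96 ± 0.43 and Rpp30 by 1.96 ± 0.15, all of them shared subunits of these enzymes. With mislocalized IntS9 in that window 3 of the 8 were higher and 3 lower, near the shares of all genes (3722 of 9216 higher and 3967 lower). Among them Rpp14 was at -2.34 ± 0.21 and Pop1 at 0.77 ± 0.07. In FlagIntS11WT against IntS11mislocalized at 2.5 to 3 h, 2 of the 8 were higher and 4 lower (median -0.12), where 39.1% of all genes were higher and 39.3% lower. There Rpp14 was higher by 2.04 ± 0.22 and Rpp30 by 0.86 ± 0.17. RNase P RNA did not pass in that comparison.

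Of the 8 signal recognition particle proteins and receptor subunits, 33 calls of 96 were higher (34.4%) and 21 lower (21.9%), also near the shares of all genes. Srp72, a subunit that binds the RNA, fell by 3.66 ± 0.12 with mislocalized IntS11 and by 5.25 ± 0.13 with mislocalized IntS9 at 2.5 to 3 h, while the receptor subunit SrpRbeta rose by 1.67 ± 0.09 and 1.75 ± 0.07. Of the 5 proteins of the 7SK particle and P-TEFb, 17 calls of 60 were higher (28.3%) and 21 lower (35.0%). In that window CycT fell by 2.13 ± 0.11 and 2.65 ± 0.06 and Hexim rose by 2.39 ± 0.10 and 2.53 ± 0.07 in the same 2 lines, and in FlagIntS11WT against IntS11mislocalized both went the opposite way, at 1.67 ± 0.07 and -1.34 ± 0.07. Of 18 genes of the RNA polymerase III machinery, 31 calls of 216 were higher (14.4%) and 75 lower (34.7%), against the same 30.6% and 28.4% of all genes. They include Polr3E (Sin), a polymerase subunit, at -3.71 ± 0.16 and -4.96 ± 0.12 in the same lines and window.

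In the knockdown some of the proteins rose and others fell. At 0 to 0.5 h 3 of 7 RNase P and MRP proteins, 5 of 8 signal recognition particle genes and 1 of 5 genes of the 7SK particle and P-TEFb were higher, where 39.5% of all genes were. The median of the RNase P and MRP proteins was 0.35 there and turned to -0.28 with total counts. Pop1 was higher by 1.96 ± 0.14, Pop5 (CG14057) by 1.44 ± 0.18 and Srp14 by 1.42 ± 0.17. CycT fell by 1.86 ± 0.13, bin3, which caps 7SK RNA, by 1.36 ± 0.09 and Larp7, which binds its end, by 1.26 ± 0.12. Over the 3 windows, 8 of 15 tests of the 7SK particle and P-TEFb were lower. Of the signal recognition particle genes 4 of 24 tests were lower, and of the RNase P and MRP proteins 1 of 21. Over all genes, 32.2% of tests in these windows were lower. Maf1, a repressor of RNA polymerase III, fell by 2.87 ± 0.17.

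Under alpha-amanitin at 1 to 1.5 h 2 of 7 RNase P and MRP proteins were higher, 1 was lower and 4 were not called, where 15.6% of all genes were higher. In the later window 5 of 7 RNase P and MRP proteins were higher and 2 lower, with Pop1 at 1.84 ± 0.07 and Rpp14 at 1.68 ± 0.12. Of the signal recognition particle genes 4 of 8 were higher and 1 lower, and Larp7 of the 7SK particle was higher by 3.40 ± 0.09. Of all genes 40.0% were higher and 49.7% lower. In mutant larvae at 72 h AEL 6 of 8 RNase P and MRP proteins were lower and 0 higher, with Rpp29 (CG8038) at -1.08 ± 0.13 and Rpp25 (CG9422) at -0.67 ± 0.14, where 30.6% of all genes were lower.

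Across the 72 libraries, with the mean of each experiment subtracted, 7SL and 7SK RNA went together (Pearson r = 0.91), and RNase MRP RNA followed them (0.79 and 0.80). RNase P RNA stood apart, with r = 0.56 to 7SL, 0.52 to 7SK and 0.19 to RNase MRP. These values describe libraries that share experiments, windows and depth, and carry no test. Among 7326 genes, those most like 7SL RNA were the ribosomal protein genes RpL24 (0.93), RpS9 (0.93) and RpL11 (0.92), and those most like 7SK RNA were RpL10Ab, RpL11 and RpS9 (0.95 each). The genes most like RNase MRP RNA were snoRNA:CG32479-b (0.89), Pdsw (0.88) and snoRNA:Psi28S-291 (0.87), and those most like RNase P RNA were CG10013 (0.92), pyx (0.91) and Hsp23 (0.90).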

How the data were processed

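Per the labels' protocols, total RNA of embryos and larvae was taken with TRIzol, ribosomal RNA was removed and the libraries keep the strand. The submitters' processing notes name RSEM 1.3.1, STAR 2.7.10a, DESeq2 1.40.2, Trimmomatic 0.39 and the build dm6, with no role or order. Whether strand was used in counting is not given there. Per the file headers, each library's deposited table holds RSEM's expected counts, TPM, FPKM and effective length per gene. The authors' expected counts were rounded to whole numbers and tested here, the deposited TPM served for levels between genes, and the deposited FPKM were not used. Current symbols and loci came from a RefSeq table of the same build (16614 of 16680 gene names matched), and introns from the reference gene annotation of that assembly.

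The counts of the 2 7SL genes were summed. A share is the percent of a library's summed expected counts, and CPM are the same share on another scale, except where scaling by the trimmed mean of M values (TMM) is stated. Each experiment was fitted over all its groups with edgeR 4.0.16 in R 4.3.3 (filterByExpr, TMM, robust quasi-likelihood test, Benjamini-Hochberg adjustment over all genes tested, threshold 0.05), and differences between lines in a joint fit of 3 experiments. SE is the size of the log2 change divided by the square root of F. Fits were tested on simulated data. Intervals of shares are 95% Clopper-Pearson and cover counting error only. Alternatives were RLE size factors, total counts, TMM without 7SL, no filter, DESeq2 1.42.0, the replicate number as a block, unsummed 7SL copies, only the groups compared, and leaving out each library. The members and gene lists were chosen with earlier results of these data known. All members are named. From each list, genes were named among the 4 with the largest change that passed, and the likeness of patterns used genes with a mean of at least 10 CPM. The markers bcd, Lcp4, eve and the comparison of neighbouring genes were chosen after values were seen. All ribosomal RNA and U6 rows were at 0 and say nothing of depletion or of those RNAs.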

Additional observations from a re-analysis of the deposited data

Results flagged for a closer look

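Of the 44 differences between windows, ages or lines that were tested for the 4 RNAs, 24 passed an adjusted p of 0.05 (edgeR, Benjamini-Hochberg), 10 higher and 14 lower, with a largest adjusted p of 0.0484. Each value below is a difference of 2 log2 changes against the control, with its standard error. Groups of 2 libraries are too small to test for a library that stands apart.

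Between the first and the last window the change against wild type fell with mislocalized IntS11 for all 4 RNAs, by -1.02 ± 0.24 for 7SL, -1.33 ± 0.23 for 7SK, -0.97 ± 0.26 for RNase MRP and -1.0 ± 0.20 for RNase P. The median over all genes for that difference was -0.43, and -0.04 with total counts. With mislocalized IntS9 the change against wild type fell for 7SK by -0.46 ± 0.13, and in the knockdown by -1.08 ± 0.29 for 7SL, -1.27 ± 0.24 for 7SK and -1.01 ± 0.26 for RNase P. Between the 2 windows of the alpha-amanitin experiment it fell by -1.23 ± 0.41 for 7SK, -1.05 ± 0.09 for RNase MRP and -0.77 ± 0.19 for RNase P. Between 24 and 72 h AEL in mutant larvae it fell by -0.51 ± 0.09 for 7SK, -0.45 ± 0.13 for RNase MRP and -0.92 ± 0.17 for RNase P.

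Between lines, the change in the knockdown exceeded that with mislocalized IntS11 in all 3 windows, in order of time by 2.20 ± 0.28, 2.81 ± 0.28 and 1.83 ± 0.28 for 7SL, by 1.41 ± 0.23, 1.98 ± 0.23 and 1.16 ± 0.23 for 7SK, and by 1.73 ± 0.31, 2.38 ± 0.31 and 1.66 ± 0.31 for RNase MRP. The change with mislocalized IntS9 exceeded that with mislocalized IntS11 for RNase P at 1 to 1.5 h by 0.79 ± 0.28. The knockdown libraries are deeper than their wild type, and the part of depth in these differences was not tested.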

How the results depend on the processing

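RNase P RNA was higher and called in all 12 comparisons of the mislocalized and Flag-tagged lines with wild type under every alternative run (156 fits, log2 changes of 1.13 to 2.59, largest adjusted p 0.00736). Of the single values, the same direction and the same side of the threshold held in 175 of 192 with RLE size factors, 179 of 192 with total counts, 191 of 192 with TMM without 7SL, 135 of 168 with no filter on low counts, 150 of 168 with DESeq2, 167 of 168 with unsummed 7SL copies, 117 of 148 with only the groups compared and 518 of 592 with 1 library left out. The direction of 1 turned past the threshold: 7SL RNA with mislocalized IntS9 at 2.5 to 3 h was -0.31 without mutant replicate 1, from 0.04, with a range of -0.31 to 0.35 over the libraries left out. The median over all genes shifted by -0.30 to 0.42 with RLE size factors, -0.62 to 0.39 with total counts and -0.09 to 0.07 with TMM without 7SL. Causes of these shifts were not tested.

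The number of the 4 RNAs called moved most with no filter, which adds genes of low counts: from 1 to 0 in larvae at 24 h AEL, from 2 to 4 for IntS11 at 0 to 0.5 h, from 1 to 3, 1 to 3 and 2 to 4 for IntS9, from 1 to 2 for alpha-amanitin at 1 to 1.5 h, from 0 to 1 for FlagIntS11E203Q against IntS11mislocalized at 1 to 1.5 h, from 1 to 2 for the IntS9 window difference, and for the earlier time steps from 1 to 4 (IntS11 wild type), 0 to 1 (IntS9 wild type) and 0 to 3 (knockdown wild type), and from 0 to 3 for the step under alpha-amanitin. With only the groups compared it moved from 1 to 2 in larvae at 24 h, for IntS9 at 0 to 0.5 h and for alpha-amanitin at 1 to 1.5 h, from 1 to 3 for IntS9 at 1 to 1.5 h, from 0 to 1 for FlagIntS11E203Q and 2 to 4 for FlagIntS11WT (2.5 to 3 h) against IntS11mislocalized, and from 0 to 1, 3 and 4 in the earlier steps of the IntS9 and knockdown wild types and the step under alpha-amanitin. For IntS9 at 1 to 1.5 h it was 2 with RLE or unsummed copies and 3 with DESeq2. For the rescue lines at 1 to 1.5 h it was 1 or 2 with RLE and DESeq2, against 0 or 1, and 0 with total counts for FlagIntS11WT against FlagIntS11E203Q in both windows. Total counts gave 2 for alpha-amanitin at 1 to 1.5 h and 1 for FlagIntS11E203Q against IntS11mislocalized. RLE and total counts each gave 1 for the IntS9 minus IntS11 difference at 2.5 to 3 h, against 0.

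With 1 library left out, the number called ranged from 0 to 2 for larvae at 24 h and 1 to 2 at 48 h, 1 to 2 and 2 to 4 for IntS11 at 0 to 0.5 h and 2.5 to 3 h, 1 to 2 and 2 to 4 for IntS9 at 1 to 1.5 h and 2.5 to 3 h, 0 to 2 for FlagIntS11WT against IntS11mislocalized and against FlagIntS11E203Q at 1 to 1.5 h, 0 to 1 for FlagIntS11E203Q against IntS11mislocalized at 1 to 1.5 h and 1 at 2.5 to 3 h, and 0 to 1 for FlagIntS11WT against FlagIntS11E203Q at 2.5 to 3 h. For the time steps of controls it ranged from 0 to 1 and 1 to 4 in the IntS11 experiment, and from 1 to 2 in the later step of the IntS9 and knockdown experiments.

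The replicate numbers are shared between groups only as numbers: the deviations of same-numbered libraries from their group means correlated at -0.16 to 0.17 over the comparisons. With the replicate block, 146 of 168 single values kept their direction and side of the threshold. The number of RNAs called rose from 1 to 2 for IntS9 at 1 to 1.5 h and the earlier IntS11 wild type step, from 0 to 2 for FlagIntS11E203Q and 1 to 3 and 2 to 4 for FlagIntS11WT against IntS11mislocalized, from 1 to 3 for FlagIntS11WT against FlagIntS11E203Q at 1 to 1.5 h, and from 2 to 4 for the wild type step of the rescue experiment. RNase P RNA in the later IntS9 wild type step was 0.75 (adjusted p = 0.1) and no longer called. With 2 libraries a group, an exact permutation test of 1 comparison could reach a p no smaller than 0.333, so calls rest on the spread shared across genes. The lowest depths, in the wild type of the knockdown experiment, left RNase P RNA with 128 to 227 counts.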

Other observations

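Genes beside the 7SL pair were lower in many of these comparisons. Scr, whose 3' end lies 321 bases from 7SLRNA:CR32864, changed by -11.1 to -0.29 on the log2 scale in the 12 comparisons of mislocalized and Flag-tagged lines with wild type and was lower in 10 (28.4% of all tests over all genes were lower), while 7SL RNA changed by -0.77 to 0.53. The noncoding gene CR42651, 3751 bases from 7SLRNA:CR42652, was lower in 9 of the 12 (-7.16 to 0.49). It was lower in all 8 comparisons of the mislocalized lines with wild type (-7.16 to -2.18), where 31.3% of all tests were lower. In the 4 comparisons of Flag-tagged lines with wild type 3 were not called. Under alpha-amanitin both genes were lower in both windows, with changes of -10.5 to -6.69 for Scr and -12.0 to -6.30 for CR42651. Of all genes, 17.97% were lower in the earlier of these windows and 49.74% in the later. Summed over all libraries, Scr held 3426 counts and CR42651 held 5304. Their large log2 changes, here and above, thus rest on few counts, and the sizes of these changes are uncertain. A link to the 7SL genes was not tested. Beside RNase P RNA, the neighbours within 5000 bases other than ATPsynC changed over the 12 comparisons by -0.05 to 1.52 (Zwilch), -1.22 to 0.35 (CG15561), -0.88 to 0.30 (CG1542) and -0.33 to 0.49 (CG12054), and none reached the 1.26 to 2.30 of RNase P RNA in all of them.

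The balance of 7SK to 7SL RNA also differed in the knockdown. There were 4.20 to 4.52 counts of 7SK per 100 counts of 7SL in its 6 libraries and 5.56 to 6.92 in the 6 wild type ones, within 3.80 to 9.0 over all 72. The U snRNAs made by RNA polymerase II were higher in FlagIntS11WT than in FlagIntS11E203Q in 16 of 24 tests and lower in 0, where 26.3% and 37.7% of all genes were higher, with medians of 1.07 and 1.21, in comparisons where RNase P RNA changed by 0.35 ± 0.14 (adjusted p = 0.0678) and 0.09 ± 0.14 (adjusted p = 0.561, edgeR). In mutant larvae at 72 h AEL all 23 snoRNA genes tested were lower (median -1.62), where 30.6% of all genes were, beside RNase MRP RNA at -0.68 ± 0.09. Only 23 of 273 snoRNA genes here, and 12 of 25 U snRNA genes above, passed the filter on low counts. A gene can pass it through the group where it is high alone, so the filter can tilt the direction of both counts. In wild type larvae 20 of the 23 snoRNA genes were higher at 72 h than at 48 h.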
